A study of Mus musculus with 24 samples.

Results

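Omega-6 fat was compared with saturated fat in the inguinal white adipose tissue, a fat depot under the skin, of male mice labelled as knockouts, in a series titled for LPCAT3 deletion. The comparison used 8 of the 24 bulk RNA-seq libraries of the series, 4 from knockout mice on a diet rich in omega-6 fat (n6) and 4 from knockout mice on a diet rich in saturated fat (SFA), and covered all 15259 genes with enough counts to be tested. All 8 libraries came from males aged 18 to 22 weeks, genotype KO (AdL3KO in the series' own shorthand), on diets with 60% of calories from fat. Wild-type (WT) males of the same ages on the same 2 diets, 4 libraries a diet, stand beside the knockout where the dependence on genotype was tested. The labels give neither the construct behind the knockout nor the cell type in which it acts, and they do not say that each library came from a separate animal. The p-values therefore measure the spread between libraries, which may be technical. The series title names mature adipocytes, but no isolation of adipocytes is described, and the values are read here as those of the whole fat pad.

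LPCAT3 is an acyltransferase of the endoplasmic reticulum that places polyunsaturated fatty acids, above all the omega-6 fatty acids linoleate and arachidonate, on lysophospholipids. It thereby sets how unsaturated membrane phospholipids are. Cells read the sterol content and fatty acid makeup of the same membranes through SREBP transcription factors, which are held in the endoplasmic reticulum by INSIG proteins and, once released, switch on the genes of fatty acid and cholesterol synthesis. Dietary polyunsaturated fat is known to lower the expression of lipid synthesis genes in liver and fat, and LPCAT3 is itself a target of the sterol-sensing nuclear receptor LXR.

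Lpcat3 (chr6:124663027-124704418 of mm10, plus strand) was read first in all 4 groups. In the knockout its level was 81.0, 73.8, 76.2 and 70.8 CPM (counts scaled to a common library size) on SFA and 50.1, 47.7, 49.1 and 49.2 CPM on n6. In WT it was 97.8, 117.5, 129.0 and 122.8 CPM on SFA and 69.9, 69.4, 72.9 and 66.0 CPM on n6. Each KO library was below each WT library of the same diet, but the gene was still counted at a good part of the WT level. On TPM, the deposited scale that also corrects for transcript length, the same groups had means of 105.6 and 74.3 in KO and 100.9 and 69.5 in WT, and the genotypes overlapped on each diet. The gene's own values therefore do not settle the genotype label, and "knockout" is used here as the labels give it. On n6 Lpcat3 fell in the knockout by 0.62 on the log2 scale (standard error, SE, 0.0615, adjusted p = 4.36e-07, edgeR), with no overlap of the 4 against 4 libraries. The fall in WT was 0.75, and the difference between the genotypes, 0.12, did not pass (adjusted p = 0.538).

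The tissue label was checked against adipocyte markers. The 17 genes of the adipocyte list had a mean log2 CPM between 10.27 and 10.52 in the 8 knockout libraries. Of these, the adipokine gene Adipoq, the fatty acid binding protein gene Fabp4 and the droplet coat gene Plin1 stood at 1982, 32400 and 1892 TPM on SFA and at 2419, 31130 and 1857 TPM on n6. Depth was 54.2 to 57.4 M estimated counts on SFA and 43.6 to 49.0 M on n6, so the deeper group was SFA throughout (55.3 ± 1.42 against 46.1 ± 2.35 M, SD, n = 4, exact two-sided permutation p = 0.0286, the smallest that 4 against 4 allows). Over the 24 libraries it ran from 43.6 to 62.1 M. The transcripts of the mitochondrial genome took 6.29 ± 0.272% of counts on SFA and 5.87 ± 0.161% on n6, and the 100 most abundant genes took 36.5 ± 0.833% and 33.4 ± 0.270% (both SD, n = 4, exact permutation p = 0.0286). The part of depth in the results was not tested. The letter that opens each deposited library name also goes with the diet, so diet and whatever that letter stands for cannot be told apart. Skeletal muscle genes reached a mean log2 CPM of 4.17 in n6 replicate 1, against -1.32 to 2.39 in the SFA libraries, and B cell genes reached 2.28 in n6 replicate 2. Leaving out these 2 libraries and 1 WT library, called the reduced set below, changed many list counts. The main counts of the reduced set are given beside the lists described. It lacks 2 of the 4 n6 libraries, and over all 15259 genes its calls were 431 rising and 792 falling, against 1361 and 2113. Its list counts are to be read beside these lower totals, not beside the shares of the full set. The part of the smaller n6 group in the lost calls was not tested. In the reduced set 55 of the 161 named genes lost their call.

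In the knockout, omega-6 fat shifted many genes by small amounts. Of 15259 genes, 3474 (22.8%) passed an adjusted p of 0.05 with edgeR's quasi-likelihood test, of which 1361 (8.92%) rose and 2113 (13.8%) fell. The median change of the genes that rose was 0.31 and of those that fell -0.21 on the log2 scale, 86.8% of the calls were smaller than 0.5, and 114 were 2-fold or more, 77 up and 37 down. In 3392 genes (22.2%) the 4 n6 libraries did not overlap the 4 SFA libraries. The balance of the directions moved with the scaling. On log2(TPM + 1), where the median of all genes moved from 0.01 to 0.11, 3303 genes rose and 497 fell. With each library centred on its median, an alternative chosen after seeing that shift, 619 rose and 2337 fell. In the reduced set 431 rose and 792 fell. Leaving out SFA replicate 3 gave 664 rising and 1391 falling, and leaving out SFA replicate 1, n6 replicate 1 or n6 replicate 2 gave 858 to 893 rising.

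The plainest pattern was a joint fall of the genes that make cholesterol and fatty acids. Of the 24 tested genes of the cholesterol synthesis list 22 fell and none rose, with a median of -0.58 against 0.01 over all genes. Of the 18 genes of fatty acid synthesis 15 fell and none rose, with a median of -0.54. Each of these 37 genes fell with no overlap between the 4 n6 and the 4 SFA libraries, against 22.2% of all genes without overlap in either direction. The calls rest on the same libraries, so the lack of overlap is no separate support. With any 1 library left out 21 to 23 cholesterol genes and 15 or 16 fatty acid genes were called lower, and in the reduced set 20 and 14 were. The adipocyte markers leaned the same way by less: of 17 genes 4 fell and none rose, against 13.8% of all genes falling, with 12 of 17 estimates below 0 and a median of -0.15. The count was 9 without SFA replicate 2 and 2 in the reduced set, and the mean log2 CPM of the list was 10.34 to 10.52 on SFA and 10.27 to 10.38 on n6. Their part in the fall of the synthesis genes was not tested. Both lists were written with earlier results of these data known, so their direction is a description.

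**Figure D1:**
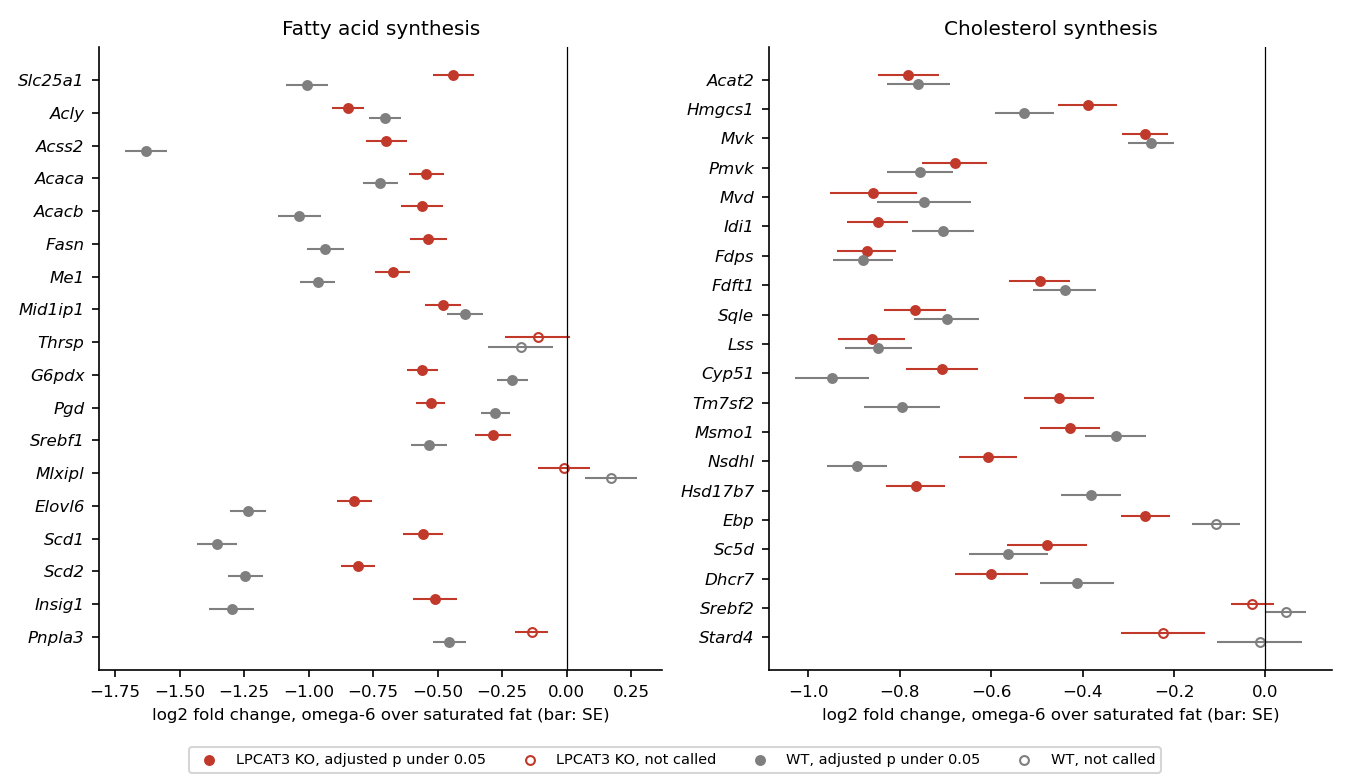
Log2 fold change of omega-6 over saturated fat (x axis, bars are SE) for 18 genes of fatty acid synthesis (left) and 20 of cholesterol synthesis (right), in the knockout (red) and WT (grey); filled points passed an adjusted p of 0.05. All 38 knockout points lie below 0, and 33 of them are filled.

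Along the cholesterol pathway the fall reached from the entry of acetyl units to the last step. Acat2, which joins the first 2 acetyl units, fell by 0.78, and the mevalonate kinases and decarboxylase Mvk, Pmvk and Mvd fell by 0.26, 0.68 and 0.86 on the log2 scale. Hmgcs1, the synthase that makes HMG-CoA, was at 1151, 1099, 1065 and 1134 CPM on SFA and at 807, 830, 927 and 834 CPM on n6, a fall of 0.39 (SE 0.0644, adjusted p = 0.000266) with no overlap of the groups.

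The isoprenoid steps fell further. Idi1, which makes the activated isoprene unit, was at 216, 198, 198 and 190 CPM on SFA and at 110, 114, 110 and 112 CPM on n6, a fall of 0.85 (SE 0.0664, adjusted p = 1.23e-08). Fdps, which builds farnesyl diphosphate, was at 221, 199, 231 and 201 CPM on SFA and at 115.5, 118, 116 and 116 CPM on n6 (fall 0.87, SE 0.0641, adjusted p = 5.35e-09). In both genes the n6 libraries were nearly equal to each other and far below the lowest SFA library. Squalene epoxidase Sqle fell by 0.77 and lanosterol synthase Lss by 0.86, and the later sterol enzymes Cyp51, Msmo1, Nsdhl, Hsd17b7, Ebp, Sc5d and Dhcr7 fell by 0.71, 0.43, 0.61, 0.77, 0.26, 0.48 and 0.60. The members that did not pass were Srebf2, the transcription factor of the pathway (-0.03), and the sterol carrier Stard4 (-0.22).

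In fatty acid synthesis the same held from citrate export to desaturation. Slc25a1, the mitochondrial citrate carrier, fell by 0.44. Acly, which cuts citrate into acetyl-CoA, was at 1336, 1191, 1254 and 1148 CPM on SFA and at 720, 696, 697 and 626 CPM on n6 (fall 0.85, SE 0.0624, adjusted p = 5.35e-09). Acss2, which makes acetyl-CoA from acetate, was at 1011, 916, 1054 and 939 CPM on SFA and at 581, 640, 636 and 558 CPM on n6 (fall 0.70, adjusted p = 2.55e-06). The SFA libraries of both genes were all above the n6 libraries. The carboxylases Acaca and Acacb fell by 0.54 and 0.56, and Me1, G6pdx and Pgd, which supply NADPH, by 0.67, 0.56 and 0.53.

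Fasn, the fatty acid synthase, was at 10940, 9944, 12260 and 11380 CPM on SFA and at 7760, 7944, 7839 and 7176 CPM on n6 (fall 0.54, SE 0.0725, adjusted p = 2.75e-05). Scd1, the desaturase that turns stearate into oleate and one of the most abundant transcripts of these libraries, was at 96920, 94550, 107200 and 100600 CPM on SFA and at 67700, 71920, 64990 and 66800 CPM on n6 (fall 0.56, SE 0.0772, adjusted p = 3.41e-05). Neither gene's groups overlapped. Its relative Scd2 fell by 0.81 and the elongase Elovl6 by 0.82. Srebf1, the transcription factor of the pathway, fell by 0.29 and Insig1, the sterol-sensing anchor that is also an SREBP target, by 0.51. Thrsp, Mlxipl and Pnpla3 did not pass, at -0.11, -0.01 and -0.14.

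The promoters of 4 of these genes are shown because their transcripts fell together and because sterol-responsive promoters are known to hold an SREBP element beside CCAAT boxes, the binding site of the factor NF-Y. Each runs 250 bases before to 50 after the transcription start in the RefSeq table of GRCm38.p6, the assembly of mm10, 5′ to 3′ on the gene's strand, with matches to CCAAT, to its reverse complement ATTGG and to the sterol element TCACNCCAC (searched on both strands) in capitals. Hmgcs1 lies at chr13:119690101-119690400 on the plus strand, Idi1 at chr13:8885356-8885655 on the plus strand, Hsd17b7 at chr1:169969156-169969455 on the minus strand and Fasn at chr11:120824498-120824797 on the minus strand.
Hmgcs1: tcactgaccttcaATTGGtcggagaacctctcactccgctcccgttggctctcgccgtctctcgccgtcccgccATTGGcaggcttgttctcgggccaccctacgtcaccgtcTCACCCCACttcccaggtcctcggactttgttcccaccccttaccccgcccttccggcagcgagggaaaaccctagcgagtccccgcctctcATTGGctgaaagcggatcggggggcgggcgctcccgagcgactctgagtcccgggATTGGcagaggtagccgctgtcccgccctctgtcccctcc
Idi1: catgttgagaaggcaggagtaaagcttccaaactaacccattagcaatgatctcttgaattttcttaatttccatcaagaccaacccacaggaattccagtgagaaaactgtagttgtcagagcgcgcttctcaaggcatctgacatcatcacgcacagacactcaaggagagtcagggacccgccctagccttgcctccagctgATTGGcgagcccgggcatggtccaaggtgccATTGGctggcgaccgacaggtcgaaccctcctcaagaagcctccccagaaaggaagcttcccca
Hsd17b7: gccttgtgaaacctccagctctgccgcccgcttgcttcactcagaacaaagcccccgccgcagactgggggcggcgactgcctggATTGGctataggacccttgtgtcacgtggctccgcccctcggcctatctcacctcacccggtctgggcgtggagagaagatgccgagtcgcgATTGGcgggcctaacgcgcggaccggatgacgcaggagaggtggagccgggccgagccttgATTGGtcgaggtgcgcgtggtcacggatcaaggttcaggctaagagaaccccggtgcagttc
Fasn: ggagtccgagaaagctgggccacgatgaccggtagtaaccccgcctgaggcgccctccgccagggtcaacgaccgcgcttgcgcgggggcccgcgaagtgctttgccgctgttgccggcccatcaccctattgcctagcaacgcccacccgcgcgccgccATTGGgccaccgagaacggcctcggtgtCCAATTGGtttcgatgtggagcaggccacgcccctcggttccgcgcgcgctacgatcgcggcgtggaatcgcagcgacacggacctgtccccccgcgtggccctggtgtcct
The Hmgcs1 promoter held the sterol element once, as TCACCCCAC at 137 bases before the start, and 4 CCAAT boxes, all on the reverse strand. Idi1 held 2, Hsd17b7 3 and Fasn 3 CCAAT matches, of which 2 in Fasn overlap. A CCAAT match was found in 15 of the 16 cholesterol genes and 12 of the 16 fatty acid genes that have a promoter in the table. It was found in 42.6% of 11504 tested genes and in 37.4% of all 32851 promoters of the same length. A gene counts here if any of its promoters holds the match, whereas the share over all promoters counts each promoter alone. A high share was not particular to the lists that fell. The match was found in 7 of 7 MHC class II, 20 of 23 unfolded protein response and 19 of 24 cell cycle genes. With edgeR no MHC class II or cell cycle gene was called. All 10 tested MHC class II genes had an estimate above 0, and 5 had an unadjusted p under 0.05 (edgeR). DESeq2 called 3 of them higher, and edgeR called 7 higher without n6 replicate 3. Of 26 unfolded protein response genes 4 rose and 2 fell, against 8.92% and 13.8% of all genes. The share with a CCAAT match ran down to 1 of 12 in complement. The sterol element was found in 1 of 16 and 1 of 16, against 1.38% and 1.24%. The cholesterol gene was Hmgcs1, and the fatty acid gene was Mlxipl, which did not pass (-0.01). No fatty acid gene that fell held the element in this window. A match is a description of letters in this window, not a bound site.

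Where these genes ended up was also read against WT, without a test, since genotypes were not compared here. The mean CPM of the knockout on n6 lay above the mean of WT on SFA for all 18 fatty acid genes and for 20 of 24 cholesterol genes. For Scd1 the means were 52752 CPM in WT on SFA and 20633 CPM in WT on n6, both below every knockout library on n6.

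The fall in the knockout was not of the same size as in WT for part of the fatty acid genes. For Scd1 the WT fall was 1.35 against 0.56 in the knockout, a difference of 0.80 (adjusted p = 0.000531 for the difference between genotypes, edgeR). For Acss2 the WT fall was 1.63 against 0.70 (difference 0.93, adjusted p = 0.000122), and for Insig1 1.30 against 0.51 (difference 0.79, adjusted p = 0.00155). Slc25a1, Acacb, Elovl6 and Scd2 also passed this test in the same direction, while G6pdx fell further in the knockout (0.56 against 0.21, difference -0.35, adjusted p = 0.045). The differences of Scd1, Acss2 and Insig1 passed under each alternative that tested the gene, and that of Elovl6 was lost in 18 alternatives. Scd1 was not tested where the 100 most abundant genes were left out. The differences of Slc25a1, Acacb and G6pdx were not taken through the alternatives. Fasn (0.54 against 0.93) did not pass (adjusted p = 0.0602). Among the cholesterol genes Hsd17b7 passed, with the larger fall in the knockout (0.77 against 0.38, adjusted p = 0.0439, lost in 14 alternatives). Idi1, Fdps, Sqle and Lss fell by 0.71, 0.88, 0.70 and 0.85 in WT, and their differences from the knockout lay between -0.14 and 0.01.

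The enzymes that lengthen and desaturate polyunsaturated fatty acids carry out the steps by which dietary linoleate becomes arachidonate. Of 13 tested genes 6 fell, none rose and 7 did not pass, with a median of -0.24 (4 fell in the reduced set). Over all genes 13.8% fell and 8.92% rose, and 792 of 15259 fell in the reduced set. Fads2, the first desaturase of that route, was at 29.1, 28.8, 30.6 and 25.7 CPM on SFA and at 17.2, 15.8, 14.9 and 16.6 CPM on n6 (fall 0.83, SE 0.0869, adjusted p = 1.03e-06). Its groups were well apart, and in WT it moved by -0.15 (adjusted p = 0.231), with a difference between genotypes of -0.68 (adjusted p = 0.0131, 0.0579 in the reduced set). Fads1, the second desaturase, fell by 0.47, Fads3 by 0.24, and Tecr and Hsd17b12, which complete each elongation cycle, by 0.60 and 0.47.

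Other lipid genes fell in part. The shares over all genes were 13.8% falling and 8.92% rising, and in the reduced set 792 and 431 of 15259 genes. In triglyceride synthesis 7 of 17 fell and none rose (median -0.12, or 0.03 on uncentred TPM), among them Gpam, the first acyltransferase (0.48), Agpat2 (0.55) and Dgat1 (0.32). In the reduced set 3 of 17 fell. Agpat2 fell by 1.07 in WT, a difference of 0.53 (adjusted p = 0.0214, or 0.0507 in the reduced set). In fatty acid uptake and binding 8 of 17 fell and 2 rose. At most 1 rose with any 1 library left out, and in the reduced set 4 fell and none rose. Acsl3, which activates fatty acids and serves lipid droplet growth, stood out at 131, 112, 128.5 and 111 CPM on SFA and 49.5, 46.2, 49.5 and 51.4 CPM on n6 (fall 1.29, SE 0.0795, adjusted p = 7.88e-10). Angptl8, a lipoprotein lipase inhibitor, fell by 0.85 and the transporter Slc27a1 by 0.44. Of 14 lipid droplet proteins 5 fell and none rose, including Plin2 (0.47) and Plin5 (0.56), and 3 fell without SFA replicate 3 and 2 in the reduced set.

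Of 23 tested genes of phospholipid remodelling, the acyltransferases and phospholipases that exchange the acyl chains of phospholipids, 7 fell and 1 rose, against 13.8% and 8.92% of all genes. The one that rose was the secreted phospholipase Pla2g5 (0.67, from under 0.6 CPM), and in the reduced set 3 fell and none rose. Lpgat1, the most abundant acyltransferase among those compared at 473 TPM on SFA and 429 TPM on n6, was at 1871, 1714, 1706 and 1708 CPM on SFA and at 1333, 1456, 1528 and 1327 CPM on n6. All n6 libraries were lower (fall 0.31, adjusted p = 0.00222), whereas in WT it rose by 0.24, and the difference of -0.55 passed (adjusted p = 0.00528, 0.0507 in the reduced set). The fall in the knockout was lost on uncentred TPM. Lpcat1, Lpcat2, Lpcat4, Mboat1, Mboat2 and Mboat7 had means of 8.35, 0.745, 3.10, 1.06, 1.12 and 17.4 TPM on SFA and 10.2, 0.928, 4.24, 1.05, 1.41 and 18.1 TPM on n6. In phospholipid synthesis 8 of 20 fell (3 without SFA replicate 3 and 3 in the reduced set) and 2 rose, with Pcyt2, of the ethanolamine branch, falling by 0.45. Of 10 LXR targets Lpcat3 and Pltp fell (1 of 10 in the reduced set) and Mylip, a ubiquitin ligase, rose by 0.41, against 13.8% of all genes falling and 8.92% rising.

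Peroxisome assembly and the circadian clock were read next. Over all genes 13.8% fell and 8.92% rose. Of 15 peroxisome genes 8 fell and none rose (median -0.16), led by Pex11a (0.37), Pex13 (0.32) and Pex16 (0.39). These 3 fell in WT as well, by 0.41, 0.41 and 0.40. Of 18 clock genes 9 fell and 1 rose. Bhlhe41, a repressor of the clock, was at 25.4, 21.6, 29.8 and 33.6 CPM on SFA and at 14.6, 13.2, 12.8 and 13.7 CPM on n6 (fall 1.03, adjusted p = 2.42e-05). Dbp fell by 0.96 and Nr1d1 by 0.54, and Npas2, which pairs with the clock's activators, rose by 0.82. Each of these 4 changed in the same direction in WT, and none passed for a difference. The hour of tissue collection is not given in the labels, and its part was not tested. In the reduced set 6 peroxisome and 5 clock genes fell, against 792 of all 15259 genes.

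Mitochondrial genes leaned down by small amounts, and their counts depended on single libraries. Of 53 nuclear genes of oxidative phosphorylation all had a negative estimate, but 15 fell, against a background of 13.8%, with a median of -0.14. Without SFA replicate 3 the count was 2, in the reduced set it was also 2, without SFA replicate 2 it was 38, and on log2(TPM + 1) the median was near 0 and 1 gene fell. In WT 52 of the 53 fell, and none of the 53 passed for a difference between genotypes. Of 13 transcripts of the mitochondrial genome 6 fell (3 without SFA replicate 3 and 1 in the reduced set), of 30 genes of beta-oxidation 9 fell and of 22 genes of the tricarboxylic acid cycle 7 fell and 1 rose. The last 2 counts of falls were 6 and 3 without SFA replicate 3, 15 and 10 without SFA replicate 2, and 5 and 2 in the reduced set. Cs, the citrate synthase, held in each alternative, at 949, 872, 1027 and 928 CPM on SFA and 745, 773, 764 and 719 CPM on n6 (fall 0.33, adjusted p = 0.000168). Of 24 genes of thermogenic and beige fat 8 fell and 1 rose in the knockout (median -0.21), and 5 to 10 fell with any 1 library left out. In WT 13 fell and 2 rose, and 1 of the 24 passed for a difference. Cidea, a lipid droplet protein of thermogenic fat, did not pass in the knockout, with 23.98 to 33.1 CPM on SFA and 25.8 to 29.8 CPM on n6. Its fall in WT passed, from 9.11 to 16.2 CPM on SFA to 3.58 to 7.78 CPM on n6, and so did the difference (adjusted p = 0.0185).

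**Figure D2:**
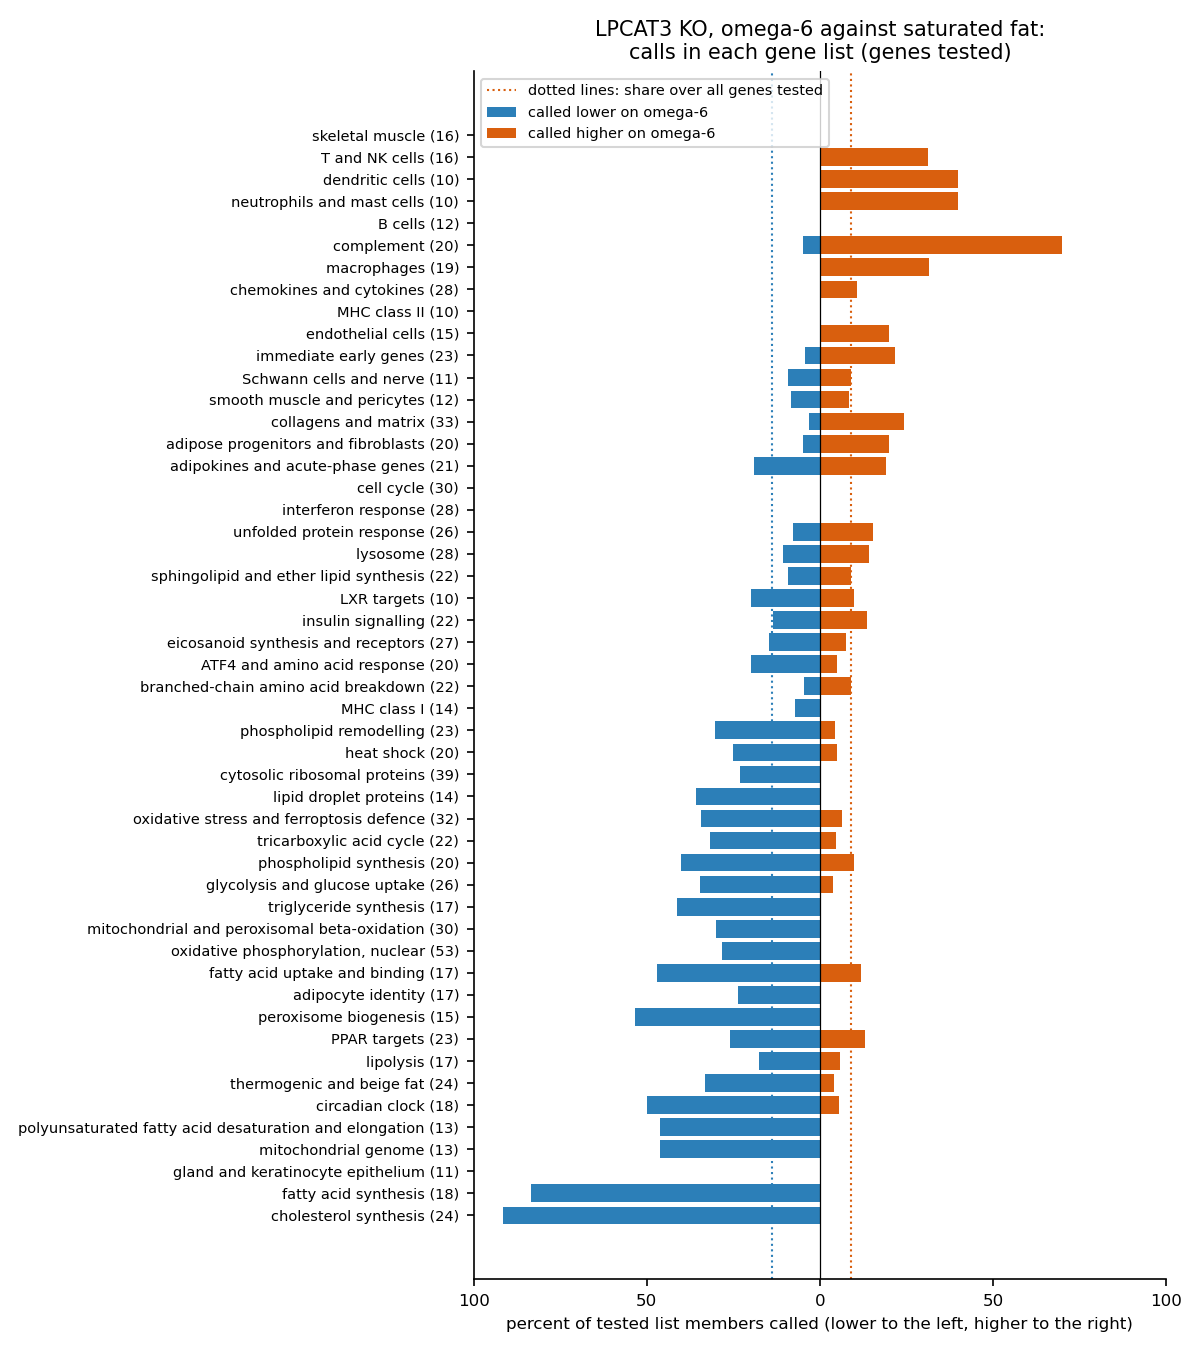
Percent of tested members called lower (blue, to the left) and higher (orange, to the right) on omega-6 fat in the knockout, for each list with at least 10 tested genes (number in brackets), ordered by median log2 fold change; dotted lines are the shares over all genes. Cholesterol and fatty acid synthesis stand at the bottom with 22 of 24 and 15 of 18 lower, and complement has the largest share higher with 14 of 20.

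The largest falls outside these pathways were in genes of mixed roles. Podnl1, a small leucine-rich matrix protein (chr8:84125989-84132527, plus strand), was at 34.9, 23.5, 35.9 and 15.6 CPM on SFA and at 5.27, 4.48, 4.44 and 5.51 CPM on n6 (fall 2.48, SE 0.225, adjusted p = 2.48e-07). Pdzk1ip1, a small membrane protein, was at 5.63 to 9.11 CPM on SFA and 1.11 to 1.98 CPM on n6 (fall 2.25, adjusted p = 4.34e-07). Both sets of libraries were apart, which the rule for the largest falls required, and both genes fell in WT too, by 1.70 and 2.75. Tlcd2, a membrane protein linked to phospholipid composition (chr11:75461715-75470899, plus strand), was at 89.3, 72.5, 77.2 and 54.5 CPM on SFA and at 17.7, 19.7, 17.1 and 15.8 CPM on n6 (fall 2.06, SE 0.123, adjusted p = 7.88e-10). In WT it was at 14.9 to 19.1 CPM on SFA and 9.14 to 10.5 CPM on n6, a fall of 0.77, and the difference of -1.29 passed (adjusted p = 0.000658). Of the 4 n6 libraries of the knockout, 3 lay within the range of WT on SFA. Nabp1, which binds single-stranded DNA, was at 628 to 791 CPM on SFA and 234 to 385 CPM on n6 (fall 1.22), and Rasd1, a small G protein induced by glucocorticoids, at 164 to 190 and 50.6 to 86.3 CPM (fall 1.35). Il20rb, Robo2, Aadac, Dipk1b, Spry3 and Grb7 complete the 12 largest falls, at 1.30, 1.28, 1.22, 1.20, 1.16 and 1.14, with Acsl3 given above. In WT 10 of the 12 fell and all 12 had the same sign. Of these 12, Tlcd2 alone passed for a difference between genotypes.

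The 12 largest rises also had mixed roles. Slc15a2, a peptide transporter, was at 5.16, 8.11, 5.17 and 5.41 CPM on SFA and at 13.2, 13.9, 13.9 and 20.7 CPM on n6 (rise 1.37, SE 0.298, adjusted p = 0.00329). Alkal2, a ligand of the receptor kinases ALK and LTK, was at 2.11, 2.61, 3.52 and 2.48 CPM on SFA and at 6.71, 5.03, 8.47 and 7.31 CPM on n6 (rise 1.36, adjusted p = 5.43e-05). Mmp9, a secreted collagenase, was at 3.41 to 5.90 CPM on SFA and at 8.56 to 12.95 CPM on n6 (rise 1.08, adjusted p = 0.000886). In each of these genes all n6 libraries were above all SFA libraries, which the rule that chose them required. Thbs1, a matrix glycoprotein that activates TGF-beta, rose by 1.01 from 76.9 to 106 CPM on SFA to 139 to 238 CPM on n6. Sfrp5, an adipokine that binds WNT ligands, rose by 0.88 from 66.0 to 99.5 CPM to 115 to 173 CPM. Sez6l, Mt2, Cacna1e, Ntrk3, Kcna1, Kcna5 and Cyp26b1 make up the rest, at 1.14, 1.09, 1.02, 0.90, 0.90, 0.84 and 0.82. Of these 7 all but Sez6l lost their call in at least 1 alternative. Of the 12 rises, 6 rose in WT and 11 had the same sign there, and none passed for a difference, Mmp9 coming nearest (WT -0.07, difference 1.15, adjusted p = 0.0532).

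**Figure D3:**
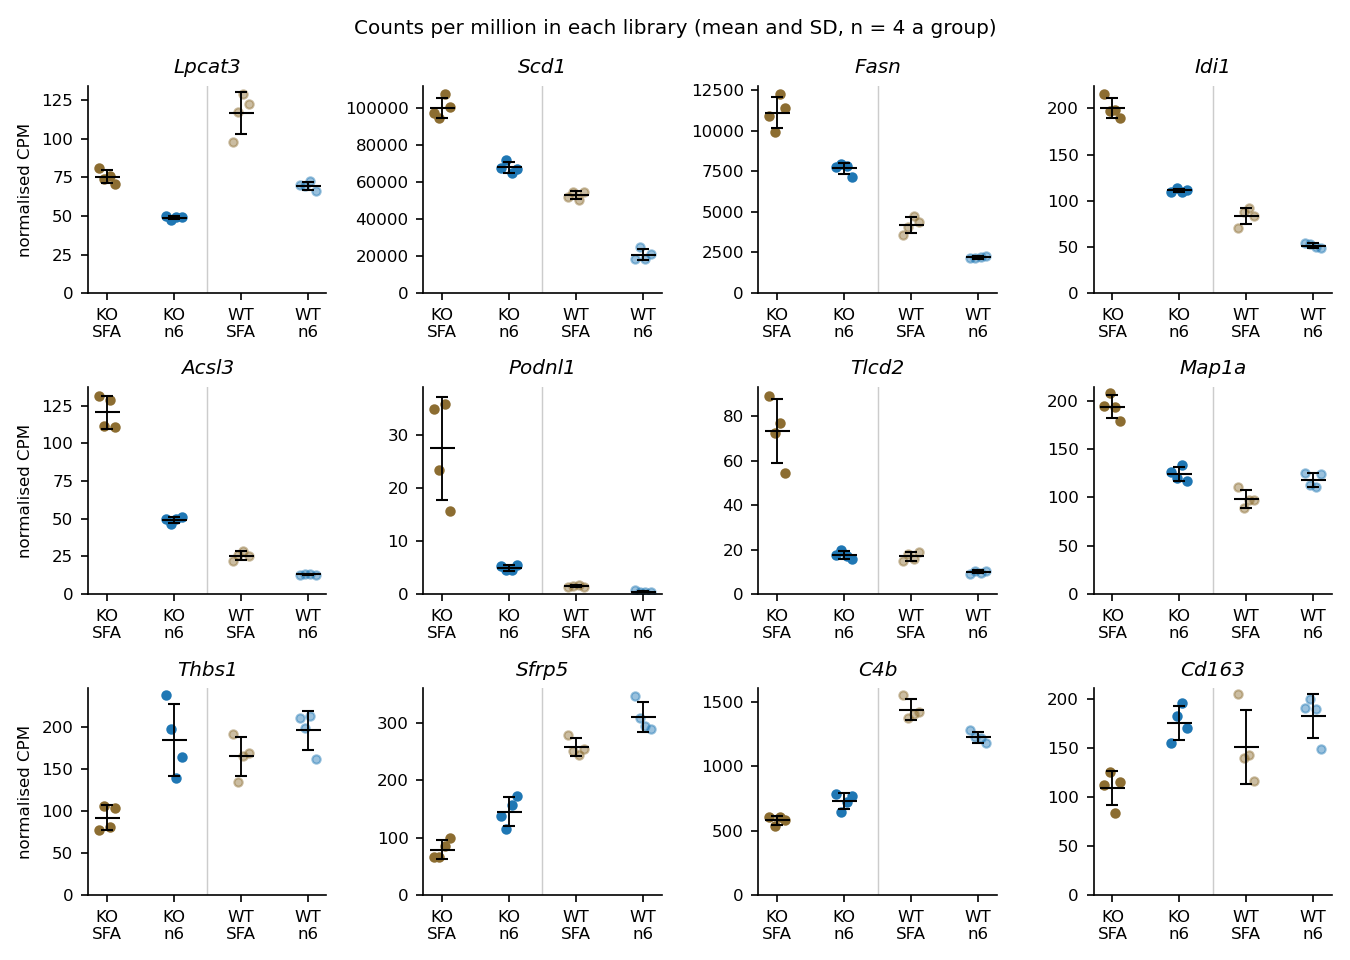
Normalised CPM in each library (points) with mean and SD (n = 4 a group) for 12 genes, knockout at full colour and WT paler, saturated fat brown and omega-6 blue, each y axis starting at 0. In the knockout the brown and blue points do not overlap for any of the 12 genes, and Map1a and C4b move in opposite directions in the genotypes. For Acsl3, Podnl1, Tlcd2, Thbs1 and Sfrp5 the rule that chose them required this separation in the knockout.

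The complement system is a cascade of secreted proteins that tags microbes and cell debris for removal. Of 20 complement genes 14 rose and 1 fell (median 0.31), against a background of 8.92% rising. C3, the central component, was at 366, 407, 357 and 385 CPM on SFA and at 576, 537, 525 and 532.5 CPM on n6 (rise 0.52, SE 0.0982, adjusted p = 0.000999), with no overlap. C7, of the membrane attack complex, rose by 0.54 and Cfb, of the alternative route, by 0.31. The count of rises was 8 without SFA replicate 3 and 3 in the reduced set, while C3, C4b and Cfb kept their calls in each alternative. C4b, the fourth component, was at 604, 534, 607 and 581.5 CPM on SFA and at 788, 647, 725.5 and 770 CPM on n6 (rise 0.33, adjusted p = 0.000553). In WT it fell by 0.23, from 1378 to 1558 CPM on SFA to 1180 to 1282 CPM on n6, and the difference of 0.56 passed (adjusted p = 0.00135). Masp1, a protease of the lectin route, fell by 0.37 in the knockout (adjusted p = 0.0483, lost in 16 of 20 alternatives) and rose by 0.72 in WT.

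Markers of immune and other cells gave fewer calls. Of 19 macrophage markers 6 rose and none fell (median 0.30, against 8.92% of all genes rising), with Cd163, a scavenger receptor of resident macrophages, at 112.5, 125, 83.8 and 115 CPM on SFA and 155, 183, 196 and 171 CPM on n6 (rise 0.69, adjusted p = 0.00162). Its groups lay apart, but the summed marker level overlapped, at a mean log2 CPM of 4.89 to 5.17 on SFA and 5.16 to 5.48 on n6, and the count was 1 without SFA replicate 3 and 2 in the reduced set. Of 16 T and NK cell markers 5 rose and none fell (0 without n6 replicate 2, 11 without n6 replicate 3 and 0 in the reduced set), at -0.09 to 0.46 on SFA and 0.06 to 1.37 on n6. Of 7 red blood cell genes 4 rose (0 without SFA replicate 3 and 0 in the reduced set), at 4.62 to 4.92 on SFA and 5.09 to 5.33 on n6, without overlap. None of the 12 B cell and 16 muscle markers was called with edgeR (0 and 3 at an unadjusted p under 0.05, 0 and 0 called by DESeq2). In bulk tissue more cells of a type and more RNA per cell cannot be told apart, and the part of these cells in the rise of complement and matrix genes was not tested. Of 33 collagen and matrix genes 8 rose and 1 fell, among them Thbs1 (above), Thbs2 (0.30) and Col12a1 (0.43), with 3 rising without SFA replicate 3 and 2 in the reduced set.

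**Figure D4:**
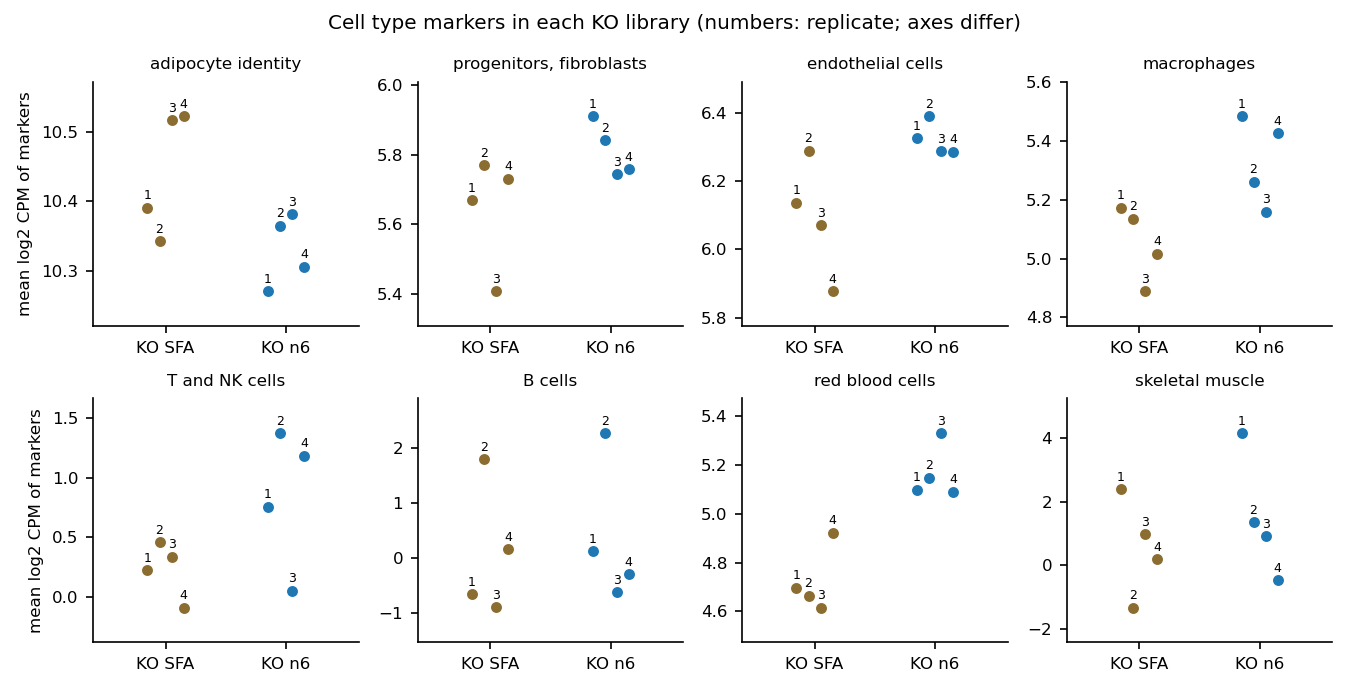
Mean log2 CPM of each cell type's marker list in the 8 knockout libraries, saturated fat and omega-6 fat side by side. Adipocyte markers stay between 10.27 and 10.52, red blood cell genes do not overlap between diets, and muscle and B cell genes spread widely between libraries of the same diet.

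Several lists gave few calls or none, and the list of defence against oxidative stress gave more. Of 30 cell cycle genes none passed in the knockout with edgeR (median 0.08; 3 at an unadjusted p under 0.05, 0 called by DESeq2), whereas 24 rose in WT (median 0.43). Of the 30, 1 passed for the difference between genotypes. None of 28 interferon response genes passed with edgeR (2 at an unadjusted p under 0.05, 0 called by DESeq2). Of 27 genes of eicosanoid synthesis and reception, which use omega-6 fatty acids as substrate, 2 rose (Ptgs1 by 0.29 and Tbxas1 by 0.56) and 4 fell (2 without SFA replicate 3, and 1 rise and 2 falls in the reduced set), among them the prostaglandin receptor Ptger3 (0.41). These counts are near the shares over all genes, 8.92% rising and 13.8% falling. In WT Ptger3 fell by 0.84 (difference 0.44, adjusted p = 0.0192, or 0.0833 in the reduced set). Of 32 genes of defence against oxidative stress 11 fell and 2 rose, against 13.8% and 8.92% of all genes. The falls were 7 without SFA replicate 4 and 6 in the reduced set. Gclm, of glutathione synthesis, fell by 0.26 and Gss, of the same route, rose by 0.41. Among adipokines the retinol carrier Rbp4 fell from 539 to 659 CPM on SFA to 321 to 351 CPM on n6 (0.81, adjusted p = 4.87e-07), and Lep, which encodes leptin, did not pass (0.04).

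Over all genes the 2 genotypes shared part of their response. In WT 3776 genes (24.7%) passed. Of the 3474 knockout calls 1609 were called in the same direction in WT, which is 46.3% of the knockout calls and 42.6% of the WT calls, and 17 were called in opposite directions. The difference itself passed for 137 genes (0.898%), 71 higher and 66 lower in the knockout. Of the 1848 knockout calls not called in WT, 41 passed for the difference. Of the 137 genes, 63 fell in WT and fell less or not at all in the knockout, 49 fell in the knockout and more so than in WT, 28 rose in WT and rose less or not in the knockout, and 12 rose in the knockout by more than in WT, with some genes in more than 1 of these sets. The count is fragile: leaving out 1 library gave 28 to 158 higher and 20 to 190 lower.

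**Figure D5:**
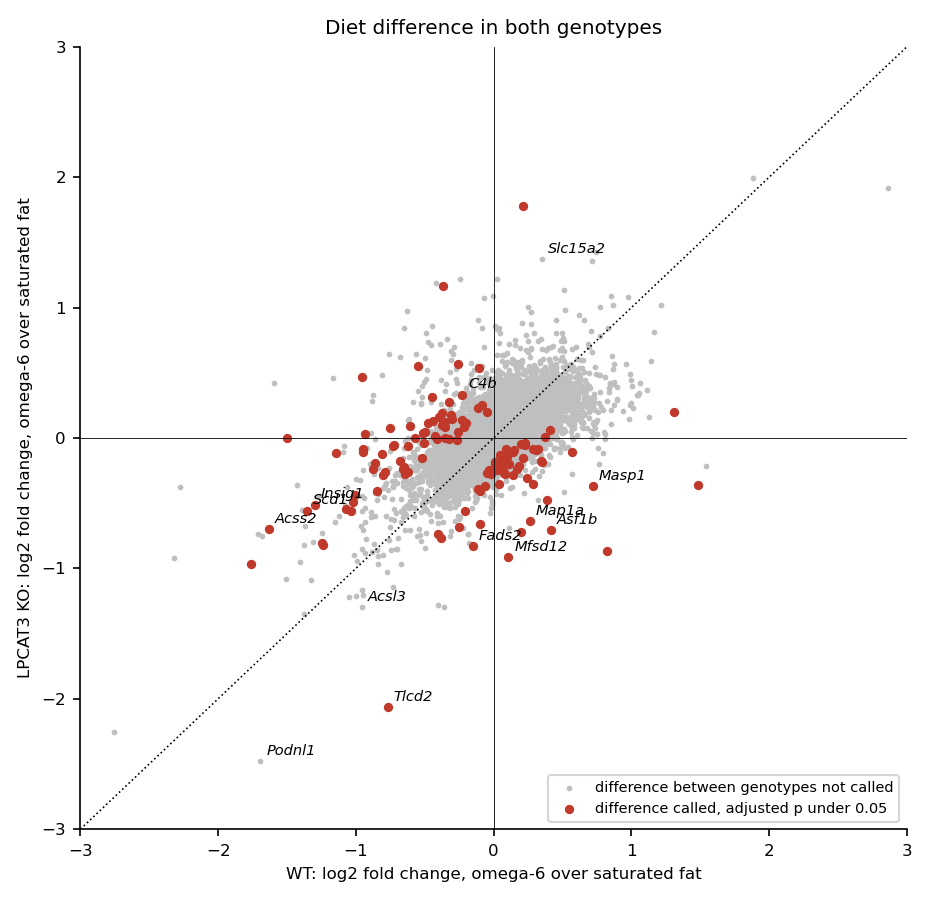
Log2 fold change of omega-6 over saturated fat in WT (x axis) and in the knockout (y axis) for the 12105 genes whose mean log2 CPM was 1 or more, with the 127 of them called for a difference between genotypes in colour. Most genes lie near the origin; Map1a and Asf1b lie below 0 in the knockout and above 0 in WT.

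Map1a, a microtubule-binding protein (chr2:121289600-121310832, plus strand), had the smallest p for the difference among the genes named by rule. In the knockout it was at 195, 208, 194 and 179 CPM on SFA and at 127, 121, 134 and 117 CPM on n6. In WT it was at 111, 89.2, 97.0 and 97.1 CPM on SFA and at 125, 113, 110.5 and 124 CPM on n6. The knockout fell by 0.64 and WT rose by 0.26 (adjusted p = 0.0109), a difference of -0.90 (adjusted p = 7.52e-05), and the knockout on SFA was the one group that stood above the others. Asf1b, a histone chaperone, fell by 0.71 in the knockout and rose by 0.41 in WT (difference -1.12, adjusted p = 0.000269). Mfsd12, a lysosomal transporter, and Rdh11, a retinol dehydrogenase, fell by 0.92 and 0.66 in the knockout against changes of 0.11 and -0.10 in WT, with differences of -1.02 and -0.56 (adjusted p = 0.000756 and 0.00155). The differences of these 4 genes passed under each alternative, leaving out single libraries and the libraries high in muscle or B cell genes included.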

How the data were processed

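The authors deposited, per the file headers, 1 table of estimated counts and 1 table of TPM, each with 35727 genes and 24 libraries. The tools named for making both tables are fastp 0.23.2 and Salmon, with the build mm10, per the submitters' processing notes. The Salmon release, settings and gene models were not given in the sources used here. Libraries were made from poly-A RNA and read from both ends, per the labels' protocols.

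Estimated counts were rounded and genes filtered with filterByExpr (minimum count 10, minimum total 15), leaving 15259. A single model with 1 coefficient per group was fitted over all 24 libraries with edgeR 4.0.16 in R 4.3.3 (TMM scaling, quasi-likelihood F test, robust, 18 residual degrees of freedom). Contrasts gave n6 against SFA in the knockout, the same in WT, and their difference. P-values were adjusted by Benjamini-Hochberg across the 15259 genes, and a gene is called when its adjusted p is under 0.05. "Rose" and "fell" refer to called genes, and log2 changes without another unit are fold changes of CPM. CPM was computed here from the counts with TMM scaling. In data simulated for this comparison over 15259 genes, changes of 1.5-fold were recovered for 47 of 67 genes, of 2-fold for 54 of 67 and of 4-fold for 59 of 66, while 6 of 15059 unchanged genes were called. Apart from the changed genes, all groups shared 1 mean per gene, and counts were drawn independently. Far fewer genes changed than were called in the real data, and no library was high in muscle or B cell genes. These rates are therefore not the error rates of the real comparison.

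The comparison, the 52 gene lists and the named-gene rule were chosen with earlier results of these data known. The rule names Lpcat3, the 12 largest rises and falls among called genes with mean log2 CPM of 1 or more and groups that do not overlap (no predicted genes, immunoglobulin or T cell receptor segments), the 6 most abundant called genes in each direction, the 3 smallest p of each list with 3 or more calls, the 10 smallest p for the difference between genotypes and the 6 smallest among genes called in opposite directions. Other members of the lipid and other lists, Ighm, Hmgcs1, Cidea, Lep, Fads1, Fads3 and the acyltransferases were added after their values were seen. Some genes of the lists and of the rule are not reported here by name, and counts include them. List members are given by counts and medians with no test. Positions are from GENCODE M21, matched by name for 34875 genes, and 117 of 161 named genes had a RefSeq promoter.

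Alternatives were RLE scaling, no low-count filter, DESeq2 1.42.0, only the groups compared, a replicate block, limma 3.58.1 on log2 TPM (pseudocount 1, pseudocount 0.1, or pseudocount 1 with all genes kept), leaving out 3 libraries high in muscle (mean log2 CPM above 4) or B cell (above 2) genes, leaving out the 100 most abundant genes, and leaving out each library. Centred TPM was added after seeing the data.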

Additional observations from a re-analysis of the deposited data

Results flagged for a closer look

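In 4 of 84 groups of 4 libraries examined, 1 library lay far from the other 3 (by Dixon's ratio of the gap to the range at the 95% level, which chance exceeds in about 1 of 20 groups). These were Slc15a2 in the knockout on SFA (0.912, replicate 2 at 8.11 CPM) and on n6 (0.910, replicate 4 at 20.7 CPM), Lpgat1 in the knockout on SFA (0.952, replicate 1 at 1871 CPM) and Cidea in WT on n6 (0.835, replicate 4 at 7.78 CPM).

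The response to omega-6 fat differed between the genotypes, by the test of the difference itself, for 22 genes that the text names. A positive value means that the knockout stood higher on n6, relative to its own SFA group, than WT did. Among genes of fatty acid and triglyceride synthesis the log2 differences were 0.93 for Acss2, 0.80 for Scd1, 0.79 for Insig1, 0.57 for Slc25a1, 0.47 for Acacb, 0.41 for Elovl6, 0.44 for Scd2 and 0.53 for Agpat2, with smaller falls in the knockout, and -0.35 for G6pdx. Larger falls in the knockout gave -0.38 for Hsd17b7, -0.68 for Fads2, -1.29 for Tlcd2, -1.02 for Mfsd12 and -0.56 for Rdh11. Opposite directions gave -0.55 for Lpgat1, -1.09 for Masp1, -0.90 for Map1a, -1.12 for Asf1b and 0.56 for C4b. Cidea gave 1.497 and Ptger3 0.44, from falls in WT, and Ighm gave 1.57 from a rise in the knockout.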

How the results depend on the processing

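The medians of the fatty acid and cholesterol lists were below 0 under every alternative, and 11 to 16 of 18 and 19 to 23 of 24 were called lower. Of the 161 genes named by the rule 81 kept their call in every alternative that tested them. So did 11 of the 22 differences between genotypes among them, which are not the same set as the 22 flagged above. The flagged differences of Slc25a1, Acacb, G6pdx, Cidea and Ighm were not taken through the alternatives. The 100 most abundant genes were not tested where they were left out. Lpl and Ndufs4, both called lower by a narrow margin, turned to 0.0211 and 0.0185 on log2(TPM + 1) with or without the filter, and to 0.0211 and 0.0186 with a pseudocount of 0.1. The cause was not tested.

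Genes called higher and lower in the knockout were 1361 and 2113. They were 3303 and 497 on log2(TPM + 1), 3353 and 493 with a pseudocount of 0.1, 2553 and 435 without the filter, 619 higher on centred TPM, and 431 and 792 without the libraries high in muscle or B cell genes. Those in WT, 1777 and 1999, were 5608 and 521, 5417 and 535, 5094 and 489 on uncentred TPM in that order, and 1077 higher on centred TPM. The differences between genotypes, 71 and 66, were 228 and 187 with DESeq2, with 40 lower without the count filter, 182, 120 and 131 lower on uncentred TPM in that order, 46 higher on centred TPM, and 20 and 10 without the libraries high in muscle or B cell genes. Leaving out 1 library gave 664 to 1691 higher and 1391 to 2497 lower in the knockout (664 and 1391 without SFA replicate 3), 1061 to 1895 and 1332 to 2337 in WT (1061 and 1332 without WT SFA replicate 4), and 28 to 158 and 20 to 190 for the difference.

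Replicate numbers were not treated as pairs: deviations of same-numbered knockout libraries correlated at 0.221, 0.237, 0.0882 and -0.071, and libraries 1 to 3 but not 4 correlated best with their own number. A replicate block over all libraries gave 1345 higher and 2065 lower, and in a fit of the 8 libraries 1303 and 1486. Genes with counts under the filter were not tested at this depth.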

Other observations

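Ighm, the heavy chain gene of immunoglobulin M, lies outside the rule for named genes and was chosen after its values were seen. It was at 87.1, 108, 100.2 and 112 CPM in the knockout on SFA and at 285, 366, 357 and 393 CPM on n6, a 3.44-fold rise (1.78 on the log2 scale, SE 0.126, adjusted p = 6.24e-09, edgeR) with no overlap. In WT it was at 529 to 630 CPM on SFA and 660 to 694 CPM on n6 (0.21, adjusted p = 0.211), and the difference of 1.57 between genotypes passed (adjusted p = 7.52e-05). All knockout libraries on either diet lay below all WT libraries. Its rise was not matched by other immunoglobulin or B cell genes: the light chain gene Igkc changed by 0.85 (adjusted p = 0.189), Ms4a1 by 0.51 and Cd79a by 0.25, and none of the 12 B cell markers was called. Cd79a stood at 0.62 to 6.08 CPM on SFA and 0.57 to 8.40 CPM on n6. It is not tested which cells or transcripts the Ighm counts come from.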
